A study of Homo sapiens with 6 samples.

Results

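The mucin genes were followed in 6 RNA-seq libraries of A549, a cell line grown from a human lung adenocarcinoma. The genes were MUC1, MUC2, MUC4, MUC5AC, MUC5B, MUC13, MUC15, MUC16 and MUC20, 9 of the 57781 rows of the count table, taken by their symbols. The 3 vector libraries came from A549 cells that the labels call WT, and the 3 shMETTL3 libraries from A549 cells with METTL3 knockdown by short hairpin RNA. METTL3 is the catalytic subunit of the enzyme that writes N6-methyladenosine (m6A) on mRNA. The labels name no treatment, time point or clone, and the count columns number the knockdown libraries sh1, sh2 and sh3 without saying whether 1 hairpin or several were used. The paper states in general that experiments were repeated independently, but neither it nor the labels say that these libraries came from separate cultures, so p-values measure the spread between these libraries, which may be technical.

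Mucins are large glycoproteins whose central region is rich in serine, threonine and proline and carries dense O-linked glycans. MUC2, MUC5AC and MUC5B are secreted and polymerise into the gel that lines the gut or the airways, where MUC5B and MUC5AC are the main gel formers. MUC1, MUC4, MUC13, MUC15, MUC16 and MUC20 are anchored in the cell membrane, where several of them take part in signalling with receptor kinases, and some are used as serum markers of carcinoma. The coding exons of mucins hold tandem repeats, which short reads cannot always place.

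Library totals ran from 14931426 to 19108928 counts, and the 9 genes together took 0.136% to 0.182% of the counts of a vector library and 0.107% to 0.122% of those of an shMETTL3 library. METTL3 itself had 887, 846 and 808 counts in vector replicates 1, 2 and 3 and 364, 399 and 307 in the shMETTL3 replicates, a log2 fold change of -1.36. Of the 15125 genes that passed the filter on low counts, 66.6% were called changed at an adjusted p under 0.05, 33.7% higher and 32.9% lower in the shMETTL3 libraries, so a changed mucin gene was not unusual among the genes of these libraries. The epithelial markers EPCAM, KRT7, KRT8, KRT18, KRT19 and CDH1 were all detected, with summed levels of 9957 to 10619 CPM (the usual unit of counts relative to library size, after TMM scaling in edgeR) in vector and 5146 to 5594 in shMETTL3 libraries, and 5 of the 6 were lower in the latter. The 7 alveolar type II markers summed to 80.7 to 97.9 CPM in vector and 73.8 to 76.1 in shMETTL3 libraries, nearly all of it ABCA3, which was called lower at a log2 fold change of -0.26, though scaling by library size alone left no gene of this list called lower. Of the surfactant proteins, SFTPA1 was at 0 in every library, SFTPC had at most 6 counts, and SFTPB, with 3, 1 and 1 counts in the vector and 13, 24 and 11 in the shMETTL3 replicates, was called higher. Among markers of other cell types, the 3 endothelial genes listed summed to 0 to 0.122 CPM in vector and 1.39 to 1.95 in shMETTL3 libraries. This came mainly from CDH5, with 0, 0 and 2 counts in the vector and 30, 28 and 30 in the shMETTL3 replicates, which was called higher, while VWF was at 0 throughout. The 5 leukocyte genes summed to 0.334 to 1.04 and 5.93 to 7.11 CPM. Here CD14, with 6, 5 and 16 counts in the vector and 125, 117 and 105 in the shMETTL3 replicates, was called higher at a log2 fold change of 3.55, while CD3E was at 0 and PTPRC had at most 1 count. The 6 fibroblast genes summed to 6.68 to 9.79 and 14.1 to 14.5 CPM, mostly from COL1A1, which was called higher at a log2 fold change of 0.90. The part of these markers in the mucin values was not tested, and in bulk RNA fewer cells of a type and less RNA per cell cannot be told apart.

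The reference that the reads were mapped to holds the mucin genes unequally, and the part of this in their counts was not tested. On GRCh37 (hg19), MUC5AC lies on the plus strand at chr11:1151580-1222364, and 50000 of its bases, chr11:1162760-1212759, are an unfilled gap that takes up 70.6% of the gene. Its annotated exons cover 1918 bases before the gap and 4012 bases after it, and the bases between are not in the reference. Repeated sequence of MUC5AC does stand just after the gap, at chr11:1212821-1212916. Where reads from the missing bases went was not tested. MUC5B (chr11:1244296-1283402, plus strand) is complete, with an exon 31 of 10893 bases, whereas no exon of the canonical MUC2 transcript (chr11:1074875-1104416, plus strand) exceeds 284 bases in the annotation used here. MUC16 lies at chr19:8959520-9121066, MUC1 at chr1:155158300-155162707, MUC13 at chr3:124624289-124672663, MUC4 at chr3:195473636-195538844 and MUC15 at chr11:26580579-26593810, all on the minus strand, and MUC20 at chr3:195447755-195467994 on the plus strand. Among windows of 30 bases in the exons, 38.3% recurred elsewhere in the same gene for MUC5B, 36.3% for MUC4, 8.9% for MUC20, 4.4% for MUC5AC and 3.3% for MUC16, against 1.3% for MUC13, 0.3% for MUC15, and 0.0% for MUC1 and MUC2. A share of 0.0% describes the annotated exons, the largest of the canonical MUC1 transcript being 454 bases, and does not show that a gene has no repeats. Whether the annotated exons of MUC1 hold all of its repeats was not tested.

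To show what such repeats look like, stretches from the repeats of 3 members are given as GRCh37 has them, in the direction of transcription. The MUC20 unit is the first copy of a 57-base repeat in coding exon 2 at chr3:195452026-195452082. The MUC4 stretch is 96 bases of coding exon 2 at chr3:195513602-195513697, within which a shorter unit recurs with differences. The MUC5B run of 30 bases is the first of 6 copies in coding exon 31, at chr11:1265476-1265505. The first 30 bases of the MUC4 stretch occurred 27 times in the exons of MUC4, and those of the MUC20 unit 11 times in MUC20.
MUC20: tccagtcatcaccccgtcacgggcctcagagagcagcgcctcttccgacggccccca
MUC4: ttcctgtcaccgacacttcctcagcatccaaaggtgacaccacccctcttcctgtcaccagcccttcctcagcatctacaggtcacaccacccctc
MUC5B: tcctccaccccagggaccacctggatcctc

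The core of the m6A motif, GGAC, was counted on the transcript strand of the longest annotated transcript of each gene, which for MUC5AC is only the part after the gap. The MUC2 transcript used has 4209 bases and is shortened in this annotation, so its value covers that part only. For the members any annotated transcript could be the longest, whereas for the other genes only protein-coding transcripts were taken. MUC2 held 9.74, MUC5B 8.82, MUC5AC 6.48 and MUC16 6.25 GGAC per kb, above the upper quartile of 5.36 over 18903 protein-coding genes, whose median was 3.72. MUC1 with 4.97, MUC20 with 3.56 and MUC4 with 3.46 lay between the quartiles, and MUC13 with 1.74 and MUC15 with 0.59 lay below the lower quartile of 2.49. The exons of MUC5B were 64.6% and those of MUC5AC 63.2% G and C, and those of MUC13 44.9%. A match is a string in the reference and no measurement of m6A, which these libraries do not hold.

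MUC5B was the mucin with the most counts in every library. To set genes side by side, CPM were divided by the kilobases of annotated exon. In the vector libraries, the order was MUC5B with 75 ± 14.2 (SD, n = 3), MUC13 with 34.0 ± 1.18, MUC5AC with 6.46 ± 1.20, MUC1 with 6.44 ± 0.19 and MUC16 with 1.89 ± 0.291 CPM per kb. The levels of MUC5AC and MUC1 did not differ beyond their spread there. MUC2, MUC20 and MUC4 followed with 0.0515 ± 0.0265, 0.0380 ± 0.0233 and 0.0115 ± 0.0105 CPM per kb, and MUC15 had no count. MUC2 and MUC20 lay within 1 SD of each other, whereas MUC4 lay below MUC20 by more than the SD of either. Levels per kb are approximate, since the gene models that the authors counted are not known, and those of MUC2 and MUC5AC are shortened or broken in the annotation used here. In the shMETTL3 libraries, the order of the first 5 was the same, with 45.1 ± 3.94 for MUC5B, 31.6 ± 0.719 for MUC13, 13.7 ± 1.15 for MUC5AC, 3.67 ± 0.379 for MUC1 and 0.757 ± 0.0149 CPM per kb for MUC16. MUC5AC, level with MUC1 in the vector libraries, thus stood apart from it in the shMETTL3 libraries. MUC16 has the longest exons, 44165 bases in all, and so ranks lower per kb than by counts.

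**Figure D1:**
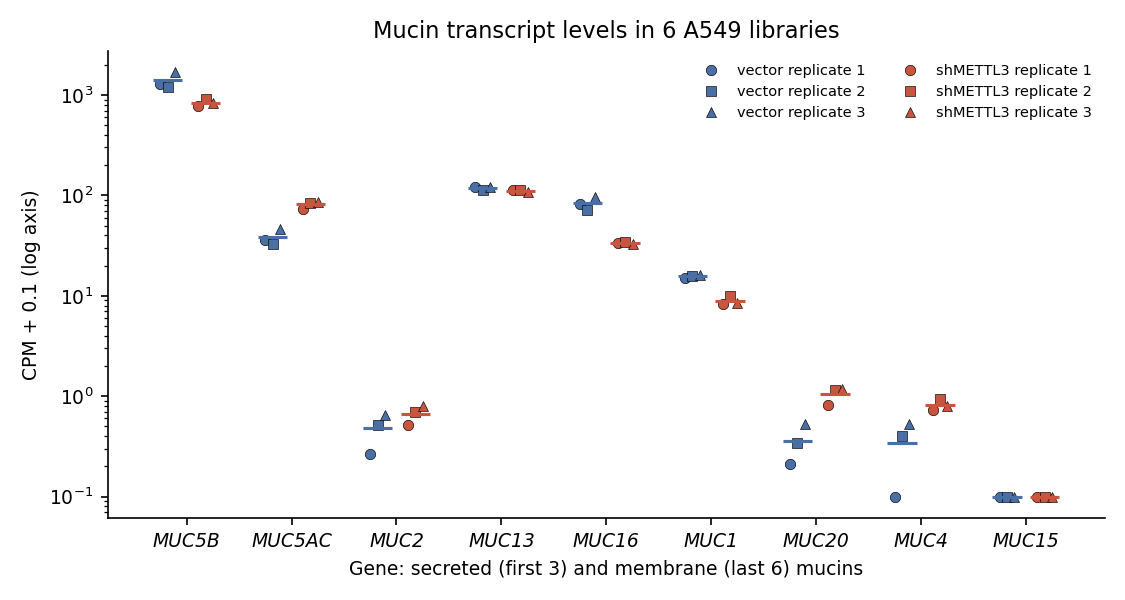
TMM-scaled CPM plus 0.1, on a log axis, of the 9 mucin genes in the 3 vector (blue) and 3 shMETTL3 (red) libraries, where symbols mark replicates and short lines the group means. MUC5B lies near 1000 CPM in both groups, MUC5AC and MUC16 change places between them, and MUC15 is at 0 in all 6 libraries.

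Whether METTL3 knockdown altered mucin transcripts was asked with the quasi-likelihood test of edgeR over all 15125 genes, with p-values adjusted by the Benjamini-Hochberg method. Of the 9 mucin genes, 7 were tested, and 6 were called changed, 3 higher (MUC5AC, MUC4 and MUC20) and 3 lower (MUC5B, MUC16 and MUC1) in the shMETTL3 libraries. MUC13 did not pass the threshold, and MUC2 and MUC15 had too few counts to be tested. MUC4 and MUC20 passed the filter only through the shMETTL3 libraries, so their being tested at all depended on the group in which they were higher. For each of the 7, the groups did not overlap, as was the case for 69.4% of all genes tested.

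**Figure D2:**
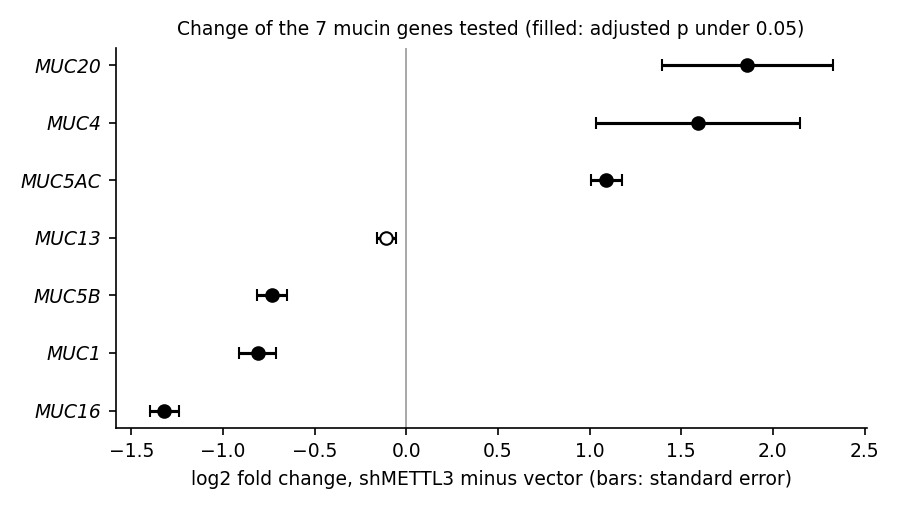
Log2 fold change with its standard error for the 7 mucin genes tested, shMETTL3 minus vector. The filled points run from -1.32 for MUC16 to 1.86 for MUC20, and the open point, MUC13 at -0.11, did not pass the threshold.

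Among the secreted mucins, MUC5B fell and MUC5AC rose. MUC5B, the gel former of the submucosal glands and small airways, had 23274, 20027 and 27690 counts in vector replicates 1, 2 and 3 and 14857, 18364 and 13242 in shMETTL3 replicates 1, 2 and 3. No shMETTL3 library reached a vector library. After scaling for library size, vector replicate 3 was the highest with 1695 CPM and shMETTL3 replicate 1 the lowest with 768 CPM. Scaled, this was 1396 ± 264 CPM (SD, n = 3) in the vector and 839 ± 73.3 CPM in the knockdown, 60.1% of the former. MUC5B thus had a log2 fold change of -0.73 (SE 0.0817, edgeR adjusted p = 9.38e-09). Without vector replicate 3 it was -0.58.

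MUC5AC, the gel former of surface goblet cells in the airways and stomach, had 643, 548 and 757 counts in the vector and 1425, 1701 and 1370 counts in the shMETTL3 replicates. Each shMETTL3 library thus held more MUC5AC counts than the highest vector library. The scaled level rose from 38.3 ± 7.13 CPM (SD, n = 3) to 81.5 ± 6.82 CPM, a log2 fold change of 1.09 (SE 0.0843, edgeR adjusted p = 7.2e-12). These counts come only from the exons on either side of the gap in the reference. MUC2, the gel former of the intestine, had 3, 7 and 9 counts in the vector and 8, 12 and 11 in the shMETTL3 replicates, and the groups overlapped. Without the filter, its log2 fold change was 0.57 with an adjusted p of 0.433 from edgeR's test, so a difference was not detectable at this depth.

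The ratio of MUC5AC to MUC5B within a library does not depend on the scaling, although it shows only that the genes changed unequally. MUC5AC counts were 2.76%, 2.74% and 2.73% of MUC5B counts in vector replicates 1, 2 and 3, and 9.59%, 9.26% and 10.3% in the shMETTL3 replicates. The vector libraries therefore differed far less in this ratio than in either gene, whose coefficients of variation among them were 18.9% for MUC5B and 18.6% for MUC5AC. On average the ratio was 3.55-fold higher in the shMETTL3 libraries (p = 0.1 by a two-sided exact permutation test, and 3 libraries against 3 allow none smaller). MUC5B made up 83.5% to 85.8% of all counts of the 9 genes in the vector libraries and 77.1% to 79.0% in the shMETTL3 libraries. The summed level of the 9 genes was 1653 ± 286 CPM (SD, n = 3) in the vector and 1075 ± 80.9 CPM in the shMETTL3 libraries.

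**Figure D3:**
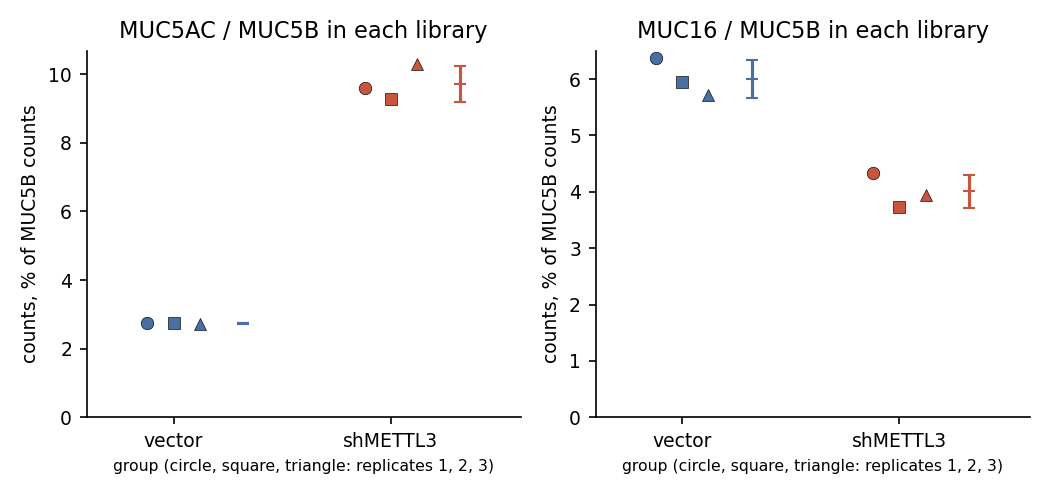
MUC5AC counts (left) and MUC16 counts (right) as a percentage of MUC5B counts in each library, with the group mean and SD beside the points. MUC5AC stands at 2.73% to 2.76% of MUC5B in the vector libraries and at 9.26% to 10.3% in the shMETTL3 libraries, whereas MUC16 goes from a mean of 6.01% to one of 4.0%.

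MUC5AC and MUC5B are neighbours in the mucin cluster of 11p15.5, where the end of MUC5AC and the start of MUC5B lie 21932 bases apart. The order along the chromosome is CHID1, AP2A2, MUC6, MUC2, MUC5AC, MUC5B, TOLLIP and BRSK2. MUC6, a gastric gel former, had 3, 0 and 0 counts in the vector and 1, 7 and 6 in the shMETTL3 replicates and was not tested. TOLLIP, an adaptor that restrains Toll-like receptor signalling and lies next to MUC5B, was higher in the shMETTL3 libraries with a log2 fold change of 0.60 (edgeR adjusted p = 1.11e-08), and BRSK2 was higher with 0.65 (edgeR adjusted p = 1.61e-05). AP2A2 was lower with -0.29 (edgeR adjusted p = 9.06e-05), and CHID1 was higher with 0.16 (edgeR adjusted p = 0.0376) although its groups overlapped. Scaled by library size alone, 3 of these 4 neighbours were called higher, none lower, and 1 was not called. MUC5B was called lower under each of the 4 scalings.

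**Figure D4:**
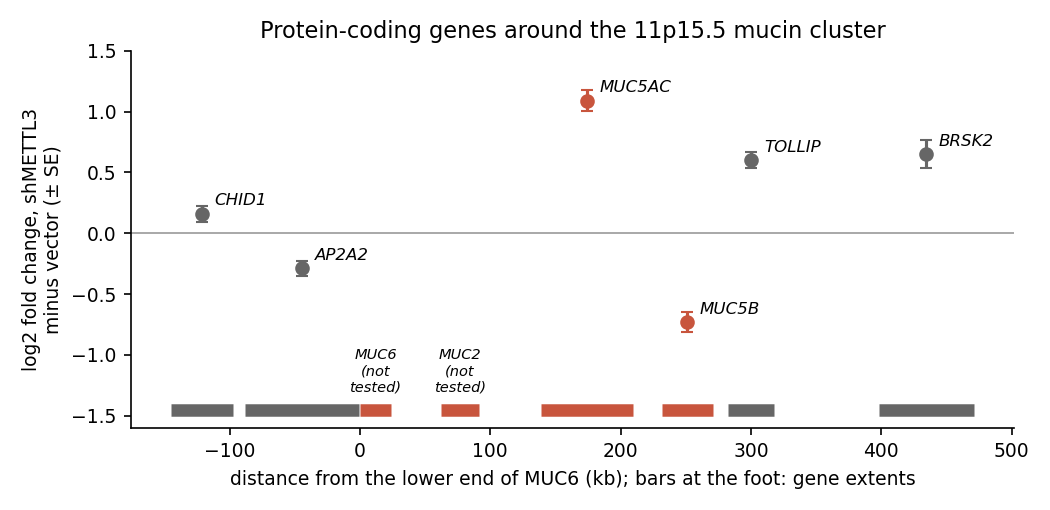
Log2 fold change with its standard error, shMETTL3 minus vector, of the protein-coding genes around the 11p15.5 mucin cluster, against distance in kb from the lower end of MUC6. MUC5AC at 1.09 and MUC5B at -0.73 lie side by side, and MUC6 and MUC2 were not tested.

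Among the membrane mucins, MUC16 and MUC1 fell and MUC13 did not pass the threshold. MUC20 and MUC4 had few counts and passed the filter only through the shMETTL3 libraries, where they were higher. MUC16, which carries the CA125 antigen, had 1482, 1190 and 1581 counts in the vector and 643, 686 and 523 counts in the shMETTL3 replicates. The shMETTL3 libraries lay close together, and all were below the lowest vector library. The level fell from 83.5 ± 12.9 CPM (SD, n = 3) to 33.4 ± 0.656 CPM, or 40.1% of the vector level, with a log2 fold change of -1.32 (SE 0.0786, edgeR adjusted p = 3.04e-14). Across all genes, 640 of those called lower fell by more than MUC16. In the vector libraries, MUC16, MUC5AC and MUC5B were each highest in replicate 3 and lowest in replicate 2, with coefficients of variation of 15.4% to 18.9%, whereas MUC1 and MUC13 varied by 2.95% and 3.45%. Within libraries, MUC16 counts were 6.37%, 5.94% and 5.71% of MUC5B counts in the vector and 4.33%, 3.74% and 3.95% in the shMETTL3 replicates, so the ratio was lower in each shMETTL3 library, with p = 0.1 in the two-sided exact permutation test, the least that 3 against 3 can give.

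MUC1, whose cytoplasmic tail takes part in receptor kinase and beta-catenin signalling, had 269, 261 and 259 counts in the vector and 158, 198 and 134 counts in the shMETTL3 replicates. The vector libraries hardly differed, and the groups were apart. Scaled, the replicates lay between 15 and 15.9 CPM in the vector and fell to 8.17, 9.86 and 8.43 CPM in the knockdown, a log2 fold change of -0.81 (SE 0.102, edgeR adjusted p = 9.59e-08). Of the 6 genes beside it that were fixed as neighbours, 4 were called lower and 2 were not called. Among the former, the log2 fold changes were -0.76 for THBS3, -0.29 for DPM3 and -0.21 for MTX1, and the groups of MTX1 overlapped. Scaled by library size alone, 2 were called lower and 1 higher.

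MUC13, a mucin with EGF-like domains known from the gut, had 2189, 1912 and 1976 counts in the vector and 2156, 2259 and 1713 counts in the shMETTL3 replicates. Scaled, these were 119 ± 4.11 CPM (SD, n = 3) and 111 ± 2.51 CPM, and the highest shMETTL3 library lay just under the lowest vector library. The log2 fold change of -0.11 (SE 0.0517, edgeR adjusted p = 0.0743) did not pass the threshold, and with scaling by library size alone it was 0.07, so no direction can be given. Its level was among the least variable of the members, and MUC16 counts went from 70.0 ± 9.10% (SD, n = 3) of MUC13 counts in the vector to 30.2 ± 0.370% in the shMETTL3 libraries. The neighbouring HEG1 and ITGB5, an endothelial mucin-like receptor and an integrin subunit, were called higher with log2 fold changes of 1.58 and 0.63.

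MUC20 and MUC4 lie beside each other on 3q29, and their counts were low. MUC20, which binds the receptor kinase MET, had 2, 4 and 7 counts in the vector and 14, 21 and 17 counts in the shMETTL3 replicates. Every shMETTL3 library had at least as many counts as the 3 vector libraries summed. For MUC20 the fitted log2 fold change came to 1.86 (SE 0.465, edgeR adjusted p = 0.000861), between 1.47 and 2.39 with each library left out in turn. MUC20P1, a pseudogene copy, was also called higher, with 9, 6 and 5 counts in the vector and 28, 25 and 29 in the shMETTL3 replicates, a log2 fold change of 1.91. Reads may be split between such copies, so the share that belongs to MUC20 is uncertain. MUC20-OT1, a non-coding gene on the same strand that shares 1851 exon bases with MUC20, had 278, 286 and 285 counts in the vector and 237, 217 and 193 in the shMETTL3 replicates and was called lower, with a log2 fold change of -0.51.

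MUC4, a large membrane mucin that binds ERBB2, had 0, 5 and 7 counts in the vector and 12, 17 and 11 counts in the shMETTL3 replicates. The fitted log2 fold change of MUC4 came to 1.59 (SE 0.555, edgeR adjusted p = 0.0123). The call depended on few reads. Without vector replicate 1, the library at 0, the log2 fold change was 0.97 with an adjusted p of 0.097, without shMETTL3 replicate 2 the adjusted p was 0.0512, and DESeq2 gave 0.0838. Of the genes fixed as neighbours of this pair, TNK2 was called lower with -0.49, TFRC higher with 0.22, and the pseudogene SDHAP1 was not called. APOD and PPP1R2, which lie on the MUC20 side, were not on that list. MUC15 had 0 counts in all 6 libraries, where 3 counts would have stood at 0.149 to 0.189 CPM, a limit that covers counting error only. The gene shares 175 exon bases with ANO3 on the opposite strand, which had 241, 195 and 218 counts in the vector and 66, 49 and 43 in the shMETTL3 replicates, a log2 fold change of -2.16 (edgeR adjusted p = 2.04e-13).

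The genes whose course over the 6 libraries was closest to that of the most abundant members were found by the distance of log2 CPM, each gene centred on its vector mean. For MUC5B these were PPP1R13L, PLCL2 and RPS2P46, at distances of 0.163, 0.170 and 0.174, and for MUC13 they were WAC, SARS and ARHGAP35, at 0.0381, 0.0392 and 0.0396. With 10067 genes changed between 2 groups, near neighbours of this kind are many, and the distance is a description only.

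Genes that build, fold, regulate or bind mucins were taken from fixed lists. Together with the neighbours above, the lists held 119 genes found in the table, of which 85 were tested and 68 called, 29 higher and 39 lower. This share of 80.0% stands beside 66.6% of all genes. With scaling by library size alone, the calls were 41 higher and 34 lower. Some genes with few counts passed the filter only through the group in which they were higher, so their being tested depended on the difference, and the counts over tested genes are a description. Among the genes named here, this held for GALNT9, BPIFA1, MUC20P1, SFTPB, CDH5 and CD14 in the shMETTL3 libraries and for B3GNT6 and AGR3 in the vector libraries. Of the other mucin-named genes, 13 were listed, 7 of them with 0 counts in every library, and 3 were tested. CD164, a sialomucin of endosomes and lysosomes, was at 163 ± 13.8 CPM (SD, n = 3) in the vector and 182 ± 7.30 CPM in the shMETTL3 libraries (log2 fold change 0.16, edgeR adjusted p = 0.0142). OVGP1 was lower with -0.78 and MUC3A higher with 0.66, the latter with overlapping groups.

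**Figure D5:**
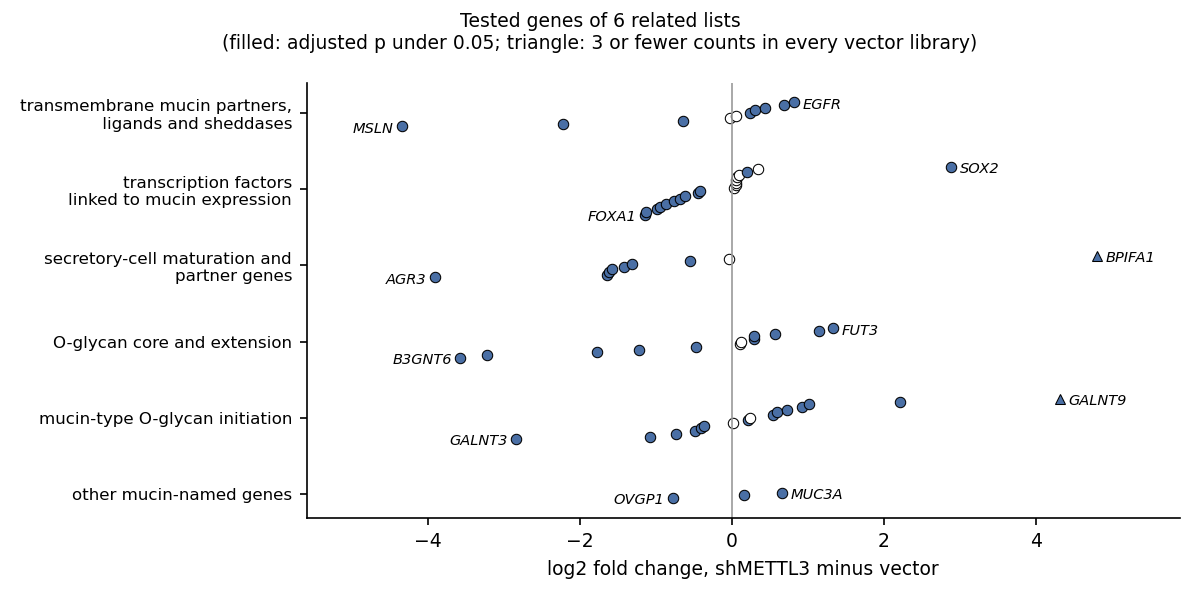
Log2 fold change, shMETTL3 minus vector, of each tested gene on 6 related lists, filled where the adjusted p was under 0.05 and drawn as triangles where no vector library had more than 3 counts. The secretory-cell list lies mostly below 0, with a median of -1.42 beside 0.002 for all genes tested. The lists of glycosylation genes lie on either side of 0.

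The first step of mucin glycosylation, the transfer of GalNAc to serine or threonine, is carried out by the GALNT family. Of the 19 family genes on the list, which does not hold every member, 16 were tested, 8 were called higher, 6 lower and 2 not at all, with a median log2 fold change of 0.22 beside 0.002 for all genes tested. With scaling by library size alone, 10 were higher and 4 lower. In the main fit 87.5% of the list was called, beside 66.6% of all genes. GALNT10 rose from 142 ± 3.89 to 286 ± 0.991 CPM (SD, n = 3), a log2 fold change of 1.01, and GALNT2 from 95.3 ± 6.76 to 144 ± 2.23 CPM. GALNT3 fell from 18.7 ± 1.35 to 2.63 ± 0.431 CPM, a log2 fold change of -2.84 (edgeR adjusted p = 8.74e-17). GALNT1, the most abundant enzyme of the vector libraries with 154 ± 9.01 CPM, stood at 154 ± 4.71 CPM in the shMETTL3 libraries. GALNT9 had 2, 2 and 0 counts in the vector and 41, 27 and 26 in the shMETTL3 replicates and was called higher.

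Of 16 genes that extend the glycans, 12 were tested, 5 of them called higher and 5 lower, with a median of 0.11. The share called was 83.3%, beside 66.6% of all genes. ST6GALNAC1, which makes the sialyl-Tn antigen, fell from 45.0 ± 3.15 to 4.81 ± 0.115 CPM (SD, n = 3), a log2 fold change of -3.22 (edgeR adjusted p = 2.42e-21). B3GNT6, the core 3 synthase, had 71, 72 and 70 counts in the vector and 12, 4 and 3 in the shMETTL3 replicates, a log2 fold change of -3.58. ST3GAL1, which caps core 1 with sialic acid, was lower with -0.47. GCNT3, which makes core 2 and core 4 branches, was higher with 0.29. 

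The genes listed for secretory-cell maturation and as partners of mucins numbered 19 and are of several kinds. Transcription factors stand among them beside genes that act in mucin folding or whose products are secreted. Only 9 were tested, of which 7 were called lower, 1 higher and 1 not, and 5 of the others had 0 counts in every library. This share of 88.9% called stands beside 66.6% of all genes tested, of which 32.9% were called lower. The 9 had a median log2 fold change of -1.42, beside 0.002 for all genes tested. Scaling by library size alone gave the same counts. AGR2, a disulfide isomerase needed for mucin folding, had 14679, 12796 and 13024 counts in the vector and 6173, 6551 and 4993 in the shMETTL3 replicates. The groups were far apart, at 793 ± 26.2 and 320 ± 6.14 CPM (SD, n = 3), and the log2 fold change was -1.31 (edgeR adjusted p = 1.56e-18). SPDEF, a transcription factor of goblet cell differentiation, fell from 65.0 ± 4.67 to 21.8 ± 1.42 CPM with a log2 fold change of -1.58 (edgeR adjusted p = 5.21e-17). AGR3 was lower with -3.91. BPIFA1, an airway secretory protein, had 0, 0 and 1 counts in the vector and 17, 13 and 11 in the shMETTL3 replicates and was called higher.

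Of 22 transcription factors linked to mucin expression, 19 were tested, 10 were called lower, 2 higher and 7 not at all. This share of 63.2% called lies near that of all genes, and with scaling by library size alone 10 were lower and 9 higher. KLF5, an epithelial zinc finger factor, stood at 197, 208 and 195 CPM in the vector and 101, 108 and 104 CPM in the shMETTL3 replicates, a log2 fold change of -0.94, FOXA1 was lower with -1.15, and SP1 with -0.45. SOX2, a factor of foregut and airway progenitors, had 32, 31 and 18 counts in the vector and 212, 213 and 222 in the shMETTL3 replicates, a log2 fold change of 2.89 (edgeR adjusted p = 4.96e-14). FOXA2, at a log2 fold change of 0.06, was not called.

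Of 10 binding partners, ligands and sheddases of membrane mucins, all tested, 5 were called higher, 3 lower and 2 not. Thus 80% were called, beside 66.6% of all genes. Those not called were the sheddases ADAM17 and MMP14, whereas the sheddase ADAM10 was called higher with a log2 fold change of 0.69. MSLN, or mesothelin, the cell surface ligand of MUC16, had 2258, 2180 and 2279 counts in the vector and 127, 118 and 112 in the shMETTL3 replicates. Its level went from 132 ± 7.06 to 6.50 ± 0.587 CPM (SD, n = 3), a log2 fold change of -4.35 (edgeR adjusted p = 1.36e-25), while MUC16 itself fell by 1.32 on the log2 scale. ERBB2, the partner of MUC4, was lower with -2.23, and MET, the partner of MUC20, with -0.64, whereas both of these mucins had higher counts. SRC, which phosphorylates the tail of MUC1, was higher with 0.44.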

How the data were processed

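The authors mapped reads to hg19 with HISAT2, counted them per gene with HTSeq and deposited these counts, whole numbers per gene symbol without normalization. The submitters' processing notes give cutadapt 3.0, HISAT2 2.2.1, SAMtools 1.13 and HTSeq 0.13.5, and the paper's methods name other versions of HISAT2 and HTSeq. The gene annotation, strand setting and read length are not given in the sources used here. With HTSeq's defaults, reads that map to several places or to overlapping genes are not counted, which can lower the counts of repeats and of overlapping exons.

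Groups and replicate numbers came from the sample titles. Counts were analysed with edgeR 4.0.16 under R 4.3.3, using TMM scaling, filterByExpr at a minimum count of 10, glmQLFit and glmQLFTest on the group alone, Benjamini-Hochberg adjustment over 15125 genes and a threshold of 0.05. SE stands for standard error, taken as the fitted coefficient over the root of F. Within-library ratios were compared by exact permutation tests over the 20 ways to divide 6 libraries into groups of 3. Alternatives used other scalings and filters, DESeq2 1.42.0, limma-voom (limma 3.58.1), a block for the replicate number, other thresholds and each library left out in turn. The functions were tested on simulated counts. Positions, exons and repeats came from GRCh37 with the GENCODE annotation lifted to it, in which 66.6% of row symbols occur. The symbols MUC3B, DPCR1 and PECAM1 were not among the rows, and DPCR1 is an older name of MUCL3, whose counts are not given here. Same-group libraries differed by more than sampling noise, with a chi-square per degree of freedom of 2.64 to 6.90. Named genes are METTL3, the members with their neighbours, the 2 most abundant and then the 2 most changed called genes of each list, and the 3 genes nearest to the 2 most abundant members. GALNT1, FOXA2, ADAM10, ADAM17, MMP14, MUC20P1 and MUC20-OT1 were added after their values were seen, and so were the cell type markers singled out from the fixed marker lists. The values of 1 gene that the rule names are not reported here. The members and lists were chosen with earlier results of these data known.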

Additional observations from a re-analysis of the deposited data

How the results depend on the processing

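The 6 calls among the mucin genes were not equally firm. MUC5AC, MUC5B, MUC1, MUC16 and METTL3 had the same direction and passed 0.05 in each of 15 alternatives. MUC20 ran from 1.47 to 2.39 in the 14 that gave it a value, which is no sign of firmness, since it passed the filter only through the shMETTL3 libraries. MUC4 was lost with DESeq2, at 1.59, and with DESeq2 and a replicate block, at 1.93, and ran from 0.97 to 2.26 with single libraries left out. MUC13 ran from -0.14 to -0.09 with single libraries left out and passed the threshold only without vector replicate 2. The cause was not tested. Between 4 and 7 mucin genes were called over 17 alternatives. A minimum absolute log2 fold change of 1 left 4 of them, 25 of the related genes and 2668 of all genes, because it removes small changes. With scaling by library size alone, the median log2 fold change over all genes was 0.18. At least 10 counts in every library leaves MUC2, MUC4 and MUC20 untested, MUC15 had a value in no fit, and MUC2, tested only without the filter, with DESeq2 or with some libraries left out, ran from 0.21 to 0.94.

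Same-numbered libraries did not deviate together, with correlations of 0.051, -0.006 and 0.033 between groups for replicates 1, 2 and 3, so the number was not taken as a pairing. With the replicate block, edgeR called the same number of mucin genes, 6, and 68 related genes, and MUC5AC stood at 1.10 and MUC5B at -0.72. Levels per kb changed with the length used. With the longest transcript, MUC5AC stood at 9.54, MUC1 at 8.54, MUC2 at 0.0900 and MUC20 at 0.0514 CPM per kb in the vector libraries, and MUC2 at 0.135 in the shMETTL3 libraries.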
